A study of Rattus norvegicus with 12 samples.

Results

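The genes described here are the receptors through which oestrogen, progesterone, prolactin and growth hormone act on the mammary gland, together with direct effectors of those receptors: Esr1, Esr2, Pgr, Prlr, Ghr, Greb1, Tnfsf11, Stat5a and Stat5b. They were taken by gene symbol from the annotation of a whole genome rat expression array, and 8 of the 9 genes were found, with 12 of the 30367 probes of the array, which name 26456 genes. No probe carried the symbol of Greb1, an oestrogen receptor target, so it was not measured here. RNA came from the lumbar mammary glands of female Wistar rats, cleared of visible lymph nodes, with 1 array per rat and 3 rats in each of 4 groups. The NP groups were offspring of dams given a diet with 17.0% protein in pregnancy and the LP groups offspring of dams given 8.8% protein, and each was sampled at day 21 and at day 28 of life. From birth on, all groups were kept alike: the litters were reduced to the same number of females and both diets were replaced by standard chow. The labels name no transgene, hormone treatment or ovariectomy, and an array reads the receptor transcripts, not the hormones. The labels do not say which rats were littermates, so p values measure the spread between these rats.

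In the mammary gland, oestrogen acting through oestrogen receptor alpha drives the elongation of the ducts at puberty, and progesterone acting through its receptor drives side branching. Both receptors are carried by a subset of luminal epithelial cells, which pass the signal to their neighbours through secreted factors such as RANK ligand (encoded by Tnfsf11), WNT4 and amphiregulin. Prolactin and growth hormone act through the related cytokine receptors Prlr and Ghr, which signal through the kinase JAK2 to the transcription factors STAT5A and STAT5B. Prlr acts mainly in the epithelium and Ghr mainly in the stroma and fat of the gland, and STAT5A is the factor through which prolactin switches on milk protein genes.

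Each gene was read by a probe of 60 bases, and the target of the probe decides which transcripts are counted. The probes that fall in protein coding sequence are shown for the genes whose levels carry the comparisons below, in lower case and 5′ to 3′, with a stop codon in capitals where the probe reaches it.
Prlr: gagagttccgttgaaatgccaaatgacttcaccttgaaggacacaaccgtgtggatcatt
Esr1: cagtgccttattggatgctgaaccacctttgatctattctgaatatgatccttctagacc
Ghr, probe A_44_P320858: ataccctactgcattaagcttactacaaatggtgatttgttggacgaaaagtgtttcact
Ghr, probe A_64_P041812: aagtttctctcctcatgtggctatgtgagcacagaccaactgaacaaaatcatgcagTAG
Tnfsf11: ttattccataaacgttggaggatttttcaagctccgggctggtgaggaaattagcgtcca
Stat5b: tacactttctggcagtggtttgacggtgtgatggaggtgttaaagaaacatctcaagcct
On the rat build rn4 used by the array annotation, the Prlr probe lies at chr2:59677666-59678170 on the plus strand, a stretch of 505 bases for 60 probe bases, so the probe crosses an intron. It is annotated to 3 transcripts of the gene, so its level is not that of 1 receptor form. The Esr1 probe lies at chr1:35660062-35660121, the Tnfsf11 probe at chr15:59397916-59397975 on the minus strand and the Stat5b probe at chr10:89722209-89722268 on the minus strand. The Ghr probe A_44_P320858 (chr2:52524230-52524289, minus strand) is annotated to 3 transcripts, while A_64_P041812 (chr2:52497358-52497417) ends on the stop codon and is annotated to 2. The other probes, for Pgr (chr8:5845716-5845775), Stat5a (chr10:89819609-89819668), the third Ghr probe A_43_P11817 (chr2:52496746-52496805) and the 3 Esr2 probes, are given by value only. Stat5a and Stat5b are close paralogs on chromosome 10, and whether transcripts of one bind the probe of the other was not tested.

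Levels are log2 of the processed signal minus log2 of the 75th percentile of the gene spots of the same array, so that 0 is the 75th percentile and -1 is 1 halving below it. The 75th percentile corresponded to a signal of 1451 to 2369.6, and between 74.8% and 79.6% of gene spots were well above background on an array. The 6 day 21 arrays shared 1 slide and the 6 day 28 arrays another, so diet was compared within a slide, while day and slide cannot be told apart. Within a slide, diet went largely with the row of the array. All NP arrays lay in row 1, with LP day 21 rat 4a and LP day 28 rat 4f, and the other LP arrays lay in row 2. The array of LP day 21 rat 6a stood apart, with a median correlation of 0.96 with the others against 0.974 to 0.989. Several results that turn on it are given with and without it, but not those with slide row as a covariate. In whole gland RNA, fewer cells of a type and less RNA per cell cannot be told apart.

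Of the 12 member probes, 9 reached the minimum of 3 arrays with a signal well above background and were tested, as were 23209 probes in all. The 3 Esr2 probes, for oestrogen receptor beta, were each well above background on 1 array: A_64_P049530 and A_64_P055962 on NP day 21 rat 6a and A_64_P055960 on LP day 21 rat 6a. Their log2 levels lay between -9.18 and -6.26, and the lowest signals called well above background lay between -8.29 and -7.29 depending on the array. No fold difference can be given for Esr2 from these arrays. The 9 tested probes read 7 genes, of which Stat5a, Stat5b, Ghr, Prlr and Esr1 were well above background on all 12 arrays, whereas Pgr was so on 10 and Tnfsf11 on 11.

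**Figure D1:**
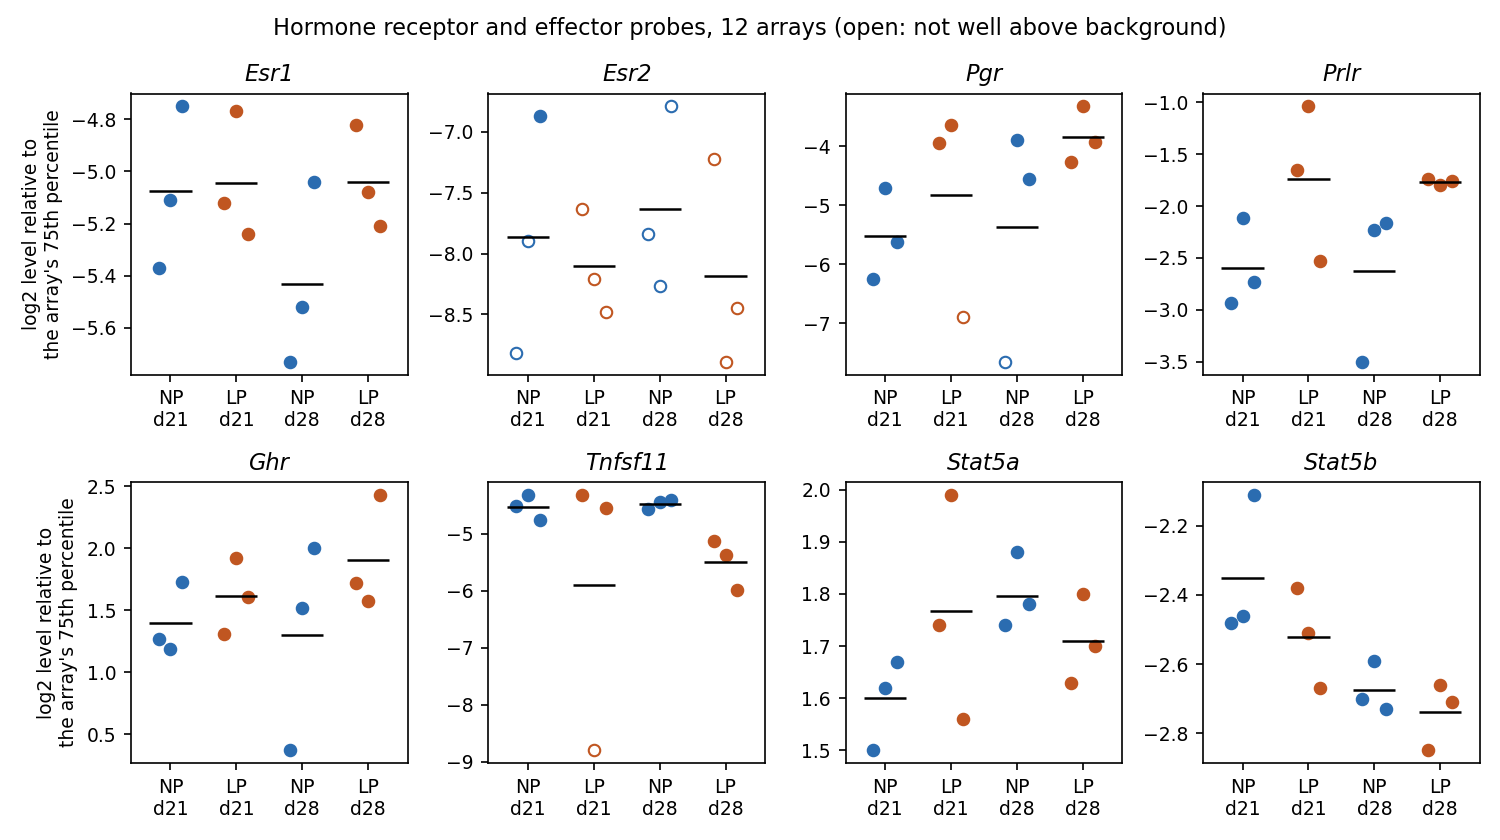
Log2 level of 1 probe per gene on each of the 12 arrays, by diet (NP blue, LP orange) and day, each panel on its own axis; each point is 1 rat, bars are group means of 3 rats, and open points were not well above background. All 3 LP points of Prlr at day 28 lie above the NP points of that day, from -1.80 to -1.74 against -3.50 to -2.16, and all 3 LP points of Tnfsf11 at day 28 lie below the NP points, while the Esr2 probe shown, A_64_P049530, is well above background in 1 point.

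No member probe differed between LP and NP at the adjusted threshold at day 21 or day 28, as was true of all tested probes (0%). At an unadjusted p under 0.05, 0 of the 9 member probes passed at day 21, where 4.36% of all tested probes did, and 0 of 9 at day 28, where 8.07% did. With slide row as a covariate, 2.26% of all tested probes passed at day 21 and 3.6% at day 28. The difference LP minus NP was above 0 for 7 of 9 member probes at day 21 and for 6 of 9 at day 28, with a median over the member probes of 0.22 and 0.46 on the log2 scale against 0.01 and -0.05 over all tested probes. The 3 Ghr probes count as 3 in these numbers. For the change of the diet difference between the days, 0 of 9 member probes passed the unadjusted threshold, against 2.26% of all probes.

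**Figure D2:**
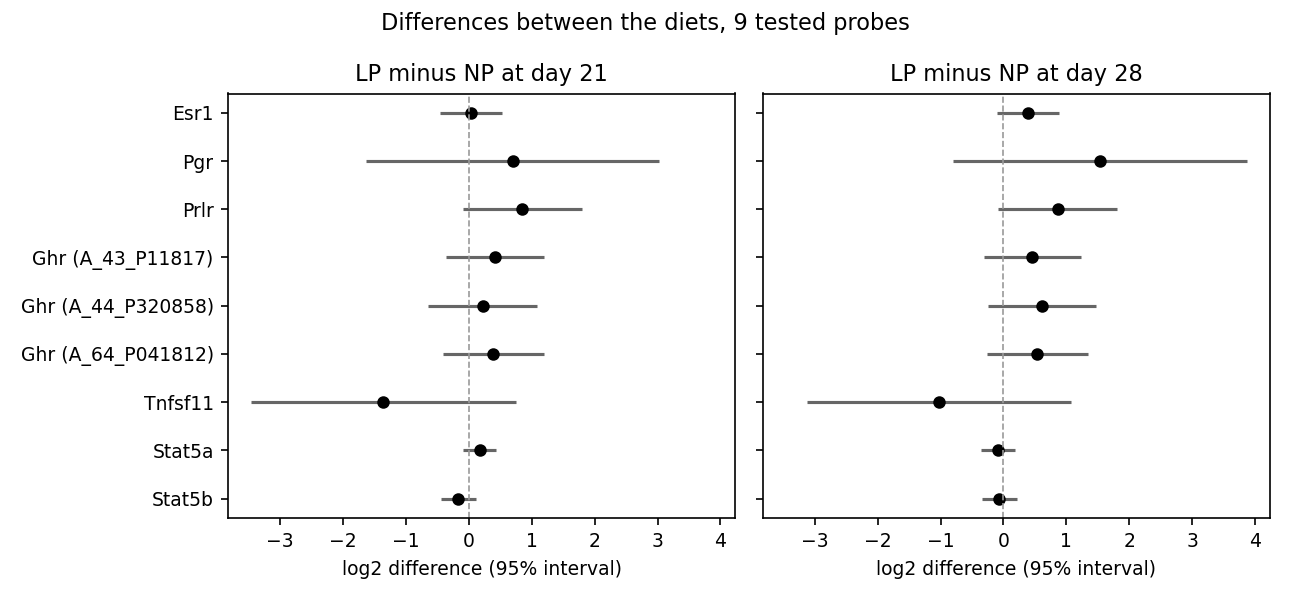
Difference LP minus NP on the log2 scale for the 9 tested member probes at day 21 (left) and day 28 (right); points are limma estimates from 3 rats per group and lines their 95% intervals. The Prlr estimates are 0.85 and 0.87 with intervals that just reach below 0, the intervals of Pgr and Tnfsf11 span several log2 units, and those of Stat5a and Stat5b stay between -0.45 and 0.43.

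Prlr, the prolactin receptor, had a higher mean in LP than in NP rats at both days, a difference that did not pass the adjusted threshold at either. In NP rats at day 21 its log2 level was -2.93, -2.12 and -2.73, and in LP rats -1.65, -1.04 and -2.53. In NP rats at day 28 it was -3.50, -2.23 and -2.16, and in LP rats -1.74, -1.80 and -1.76. At day 21 LP rat 7c lay among the NP rats, whereas at day 28 all 3 LP rats lay above all 3 NP rats, as was the case, in either direction, for 16.8% of all tested probes at day 28. The 3 LP rats of day 28 lay close together, with an SD of 0.03, whereas the NP rats of that day had an SD of 0.75. LP exceeded NP by 0.85 (SE 0.42, 1.81-fold) at day 21, with an unadjusted p of 0.072 and an adjusted p of 0.861 by limma. At day 28 the difference was 0.87 (SE 0.42, 1.82-fold; unadjusted p = 0.0688, adjusted p = 0.581 by limma). From day 21 to day 28 the difference shifted by 0.01 (95% interval -1.33 to 1.35). Averaged over both days, a comparison that was added after the values at each day had been seen, the difference was 0.86 (SE 0.30, 95% interval 0.19 to 1.53; unadjusted p = 0.0169, adjusted p = 0.418 by limma). Prlr was the only member probe that passed the unadjusted threshold in this average, which 11.9% of all tested probes passed. With slide row as a covariate its unadjusted p was 0.0704 by limma, and 3.26% of all tested probes passed. As diet went largely with row, that fit estimates the diet difference less precisely. Over all alternative settings the difference lay between 0.64 and 1.27. Single rats moved the size: the difference at day 21 was 0.50 without LP rat 6a and 1.25 without LP rat 7c, and the difference at day 28 was 0.43 without NP rat 4f.

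Across the 12 arrays, the level of Prlr correlated with the markers of luminal epithelium. For these, the mean log2 level of 8 genes (Krt7, Krt8, Krt18, Krt19, Epcam, Cdh1, Cldn4 and Elf3) was taken, all of them well above background on every array. Its values were -0.32, 0.79 and -0.14 in NP and 0.91, 1.74 and 0.05 in LP rats at day 21. At day 28 they were -0.37, 0.78 and 0.51 in NP and 0.87, 0.99 and 0.69 in LP rats. The summed level of these genes, as a multiple of the 75th percentile, ranged from 13.5 to 25.7 in NP and 17.4 to 49 in LP rats at day 21, and from 11 to 24.6 in NP and 26.5 to 29.4 in LP rats at day 28. Over the 12 rats, Pearson's r between Prlr and the luminal mean was 0.95 and Spearman's rho was 0.91, with permutation p of 1e-05, the smallest that 100000 permutations can give, and 0.00017. Adjusted over the 56 relations of 7 members with 8 cell type lists, these were 0.00056 and 0.00952 by permutation test. Without the 2 arrays farthest from the median of the luminal mean, NP day 21 rat 4a and NP day 28 rat 4f, r was 0.94. Within day 21 it was 0.99 and within day 28 0.95, with exact permutation p of 0.00139 and 0.0319. The value within day 28 leans on NP rat 4f, the lowest of that day in both, at -0.37 and -3.50. The r within day 28 without that rat was not computed.

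Relative to the luminal mean of the same array, a measure added after the levels had been seen, the diet difference of Prlr was 0.06 at day 21 and 0.32 at day 28 (exact permutation p = 0.5 and 0.2). The level of Prlr minus the luminal mean was -2.61, -2.91 and -2.58 in NP and -2.56, -2.78 and -2.58 in LP rats at day 21. At day 28 it was -3.13, -3.01 and -2.67 in NP and -2.61, -2.79 and -2.44 in LP rats. The groups overlapped at both days. Averaged over both days the diet difference of this relative level was 0.19 (exact permutation test within days, two-sided p = 0.095), against 0.86 (p = 0.02) for Prlr itself and 0.67 (p = 0.06) for the luminal mean, where 0.005 is the smallest p that the exact test allows. Without LP day 21 rat 6a the relative level differed by 0.22 (exact permutation p = 0.08) and the luminal mean by 0.46 (exact permutation p = 0.17). At day 21 alone they then differed by 0.13 and 0.37 (exact permutation p = 0.5 for both). With the basal list, read on 7 of its 8 genes (such as Krt5, Krt14 and Acta2), r was 0.93 over 12 arrays (adjusted permutation p = 0.00056). Without LP day 21 rat 6a and NP day 28 rat 4f it was 0.84. The part of the epithelial markers in the diet difference of Prlr was not tested beyond these values.

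Pgr, the progesterone receptor, is an oestrogen receptor target and was the member with the highest SD over the arrays. Its log2 level was -6.26, -4.71 and -5.62 in NP and -3.94, -3.64 and -6.90 in LP rats at day 21. At day 28 it was -7.66, -3.90 and -4.56 in NP and -4.26, -3.32 and -3.93 in LP rats. The lowest rats, LP day 21 rat 7c and NP day 28 rat 4f, were not well above background, and the groups overlapped at both days. That SD was 1.40 over the 12 arrays, higher than that of 98.3% of tested probes. The difference LP minus NP was 0.70 (SE 1.05) at day 21 and 1.53 (SE 1.05) at day 28, with adjusted p of 0.934 and 0.594 by limma. Single rats moved both: leaving out 1 rat gave 0.11 (without LP rat 6a) to 1.74 (without LP rat 7c) at day 21, and 0.39 at day 28 without NP rat 4f. The 95% interval at day 28 ran from -0.80 to 3.87, so at this spread neither no difference nor a large one lies outside it.

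Pgr varied with the same arrays as Prlr, with r of 0.88 between them over 12 arrays. With the luminal mean its r was 0.87 and rho 0.85 (permutation p = 0.00013 and 0.00087, adjusted 0.00243 and 0.0162), and without NP day 21 rat 4a and NP day 28 rat 4f r was 0.79. Within day 21 r was 0.88 (exact permutation p = 0.0306) and within day 28 0.98 (exact permutation p = 0.00972). The value within day 28 leans on NP rat 4f, the lowest of that day in both, and was not computed without it. Relative to the luminal mean, the diet difference of Pgr was -0.09 at day 21 and 0.99 at day 28, with exact permutation p of 1 and 0.4. Without LP rat 6a it was -0.27 at day 21 (exact permutation p = 0.8).

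**Figure D3:**
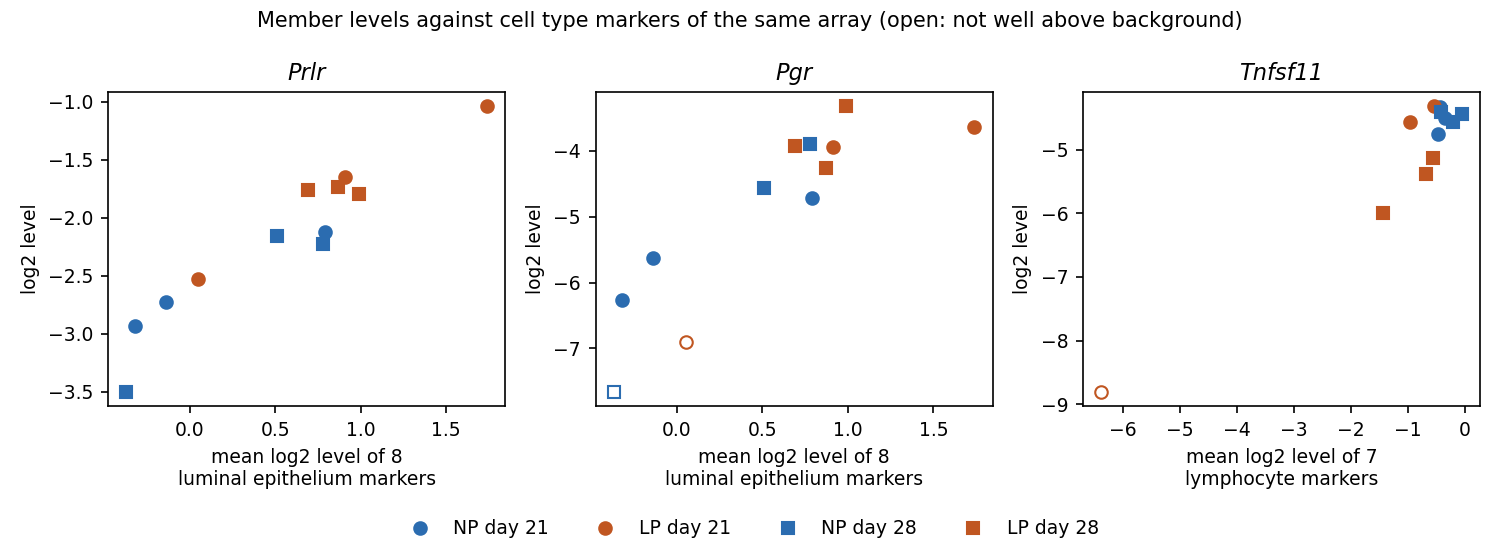
Log2 level of Prlr and Pgr against the mean log2 level of 8 luminal markers, and of Tnfsf11 against that of 7 lymphocyte markers, each point 1 array (circles day 21, squares day 28, NP blue, LP orange, open not well above background). Prlr and Pgr climb with the luminal mean (r of 0.95 and 0.87), and Tnfsf11 and the lymphocyte mean are both lowest on LP day 21 rat 6a, at -8.80 and -6.38.

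Esr1, which encodes oestrogen receptor alpha, was well above background on all arrays, with an SD over them of 0.30, higher than that of 58.3% of tested probes. Its log2 level was -5.37, -5.11 and -4.75 in NP and -5.12, -4.77 and -5.24 in LP rats at day 21, with full overlap. At day 28 it was -5.73, -5.52 and -5.04 in NP and -4.82, -5.08 and -5.21 in LP rats, so 2 NP rats lay below all others of that day. The difference LP minus NP was 0.03 (SE 0.22, 95% interval -0.46 to 0.52) at day 21 and 0.39 (SE 0.22, interval -0.10 to 0.88) at day 28, with adjusted p of 0.989 and 0.581 by limma. At day 28 it was 0.24 without NP rat 4f and 0.59 without NP rat 6f. Esr1 was read by 10 spots on an array (9 on 2 arrays after outlier spots were left out), and the log2 values of these spots had an SD of 0.09 to 0.30 on an array, while the levels of the rats of a group, each a mean over these spots, had an SD of 0.20 to 0.35. Its r with the luminal mean was 0.49 (adjusted permutation p = 0.309).

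Ghr, the growth hormone receptor, was read by 3 probes whose levels were correlated over the arrays. By the probe A_44_P320858 the log2 level was 1.27, 1.19 and 1.73 in NP and 1.31, 1.92 and 1.61 in LP rats at day 21, and 0.37, 1.52 and 2 in NP and 1.72, 1.57 and 2.43 in LP rats at day 28. NP day 28 rat 4f was the lowest and LP day 28 rat 7f the highest by all 3 probes. The correlations between the probes over the 12 arrays were 0.92 to 0.98, so the probe annotated to 3 transcripts and the probe at the stop codon varied together. The difference LP minus NP was between 0.22 and 0.42 by the 3 probes at day 21 and between 0.46 and 0.61 at day 28. Without NP rat 4f those at day 28 were 0.13, 0.15 and 0.19. All 6 differences from the full set of rats were above 0, and none passed (unadjusted p between 0.146 and 0.59, adjusted p between 0.589 and 0.947 by limma). Averaged over both days, the 3 probes gave 0.41, 0.44 and 0.46 (adjusted p between 0.433 and 0.477 by limma), and 0.18, 0.27 and 0.29 without NP day 28 rat 4f. The r of Ghr with the luminal mean was 0.46 (adjusted permutation p = 0.352). Its r with the adipocyte and stroma lists was 0.41 and 0.57 (adjusted 0.421 and 0.208). Whether the correlations of Prlr and Ghr with the luminal mean differ was not tested.

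**Figure D4:**
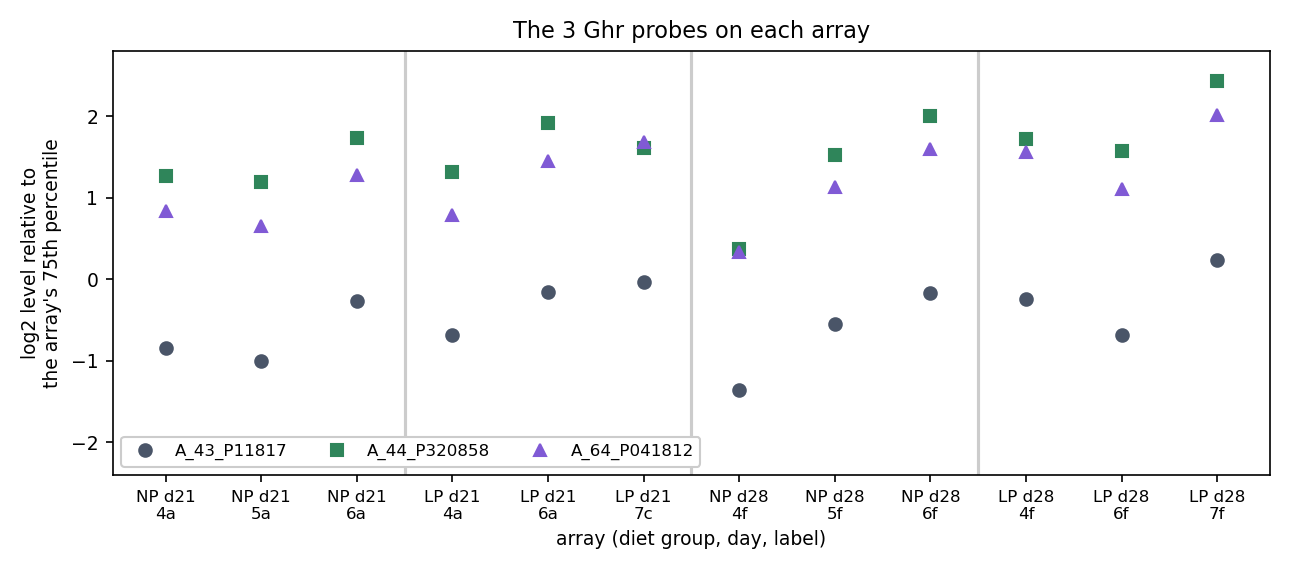
Log2 level of the 3 Ghr probes on each of the 12 arrays, grouped by diet and day. The probes run in parallel (r between 0.92 and 0.98), all 3 lowest on NP day 28 rat 4f and highest on LP day 28 rat 7f; the height of one probe above another depends on the probe and is not compared.

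Tnfsf11, which encodes RANK ligand, a cytokine that carries the progesterone signal in the epithelium and is also made by activated lymphocytes, was lower in LP than in NP rats at day 28. Its log2 level was -4.57, -4.44 and -4.41 in NP and -5.13, -5.38 and -5.99 in LP rats at day 28, with no overlap. At day 21 it was -4.51, -4.33 and -4.76 in NP and -4.32, -8.80 and -4.56 in LP rats, and rat 6a, at -8.80, was not well above background. The difference LP minus NP was -1.03 (SE 0.94, adjusted p = 0.668 by limma) at day 28 and -1.36 (SE 0.94, adjusted p = 0.862 by limma) at day 21. With slide row as a covariate, the difference at day 28 was -0.05 (unadjusted p = 0.961 by limma), and with the normexp background correction it was -0.42. All NP arrays lay in row 1, as did 1 of the 3 LP arrays of each day, so the row term came from the LP arrays alone. It was common to both days and so took in LP day 21 rat 6a, which lay in row 2 at -8.80. The fit with slide row was not run without that rat. At day 28 the LP array of row 1, rat 4f at -5.13, lay below the NP arrays. Both the SE and the value at day 21 depended on the array of LP rat 6a, which entered the common estimate of the spread. Without it the difference at day 21 was 0.10 (unadjusted p = 0.685) and the difference at day 28 was still -1.03, now with an unadjusted p of 0.000805 and an adjusted p of 0.42 by limma. From day 21 to day 28 the diet difference shifted by 0.33 (unadjusted p = 0.81) with the array and -1.13 (unadjusted p = 0.00575) without it by limma, so the 2 days differed beyond the unadjusted threshold only without LP day 21 rat 6a.

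Lymphocyte genes moved with Tnfsf11. The mean log2 level of 7 of them (Cd79a, Cd79b, Ms4a1, Cd2, Cd3e, Cd3g and Ccr7) was -0.36, -0.44 and -0.48 in NP and -0.54, -6.38 and -0.96 in LP rats at day 21. At day 28 it was -0.22, -0.06 and -0.43 in NP and -0.56, -0.69 and -1.44 in LP rats. All LP rats lay below all NP rats of their day. The diet difference over both days was -1.43 (exact permutation test within days, two-sided p = 0.005, the smallest it allows). Without LP day 21 rat 6a it was -0.49 (exact permutation p = 0.005), and at day 21 alone -0.32 in place of -2.20. These p values have limits, as the list was chosen with earlier results of these data known and the permutation left slide row out of account. On each day the lowest means were on the LP arrays of row 2. By limma 0 of the 7 genes passed the unadjusted threshold over both days, against 11.9% of all tested probes. All 7 genes were well above background on 11 arrays, and on LP day 21 rat 6a 4 of them were, with Cd2, Cd3e and Ms4a1 not. The summed level of the list, as a multiple of the 75th percentile, was 9.94 to 11.3 in NP and 0.116 to 9.54 in LP rats at day 21, and 5.41 to 9.87 in LP rats at day 28, when all NP rats lay higher, up to 13.4. The glands had been cleared of visible lymph nodes, and how much node tissue remained in each sample was not recorded in the labels.

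Over the 12 arrays Pearson's r between Tnfsf11 and the lymphocyte mean was 0.96 (permutation p = 0.00129, adjusted 0.0147) and rho was 0.63 (permutation p = 0.0323, adjusted 0.226). Without LP day 21 rat 6a and LP day 28 rat 7f r was 0.35, so the pooled relation rests on those arrays. Within day 28 r was 0.93 (exact permutation p = 0.00833), and within day 21, where 1 array decides it, 0.99 (exact permutation p = 0.0667). Relative to the lymphocyte mean, Tnfsf11 was -4.35, -4.38 and -3.98 in NP and -4.57, -4.69 and -4.55 in LP rats at day 28, a difference of -0.37 with no overlap (exact permutation p = 0.1, the smallest for 3 against 3). At day 21 the relative levels were -4.16, -3.89 and -4.28 in NP and -3.78, -2.42 and -3.60 in LP rats, a difference of the opposite sign, 0.84, also with no overlap (exact permutation p = 0.1). Without LP rat 6a it was 0.42 (exact permutation p = 0.2). The part of lymphocytes in the diet difference of Tnfsf11 was not tested beyond these values, and with the luminal mean its r was -0.64 and its rho -0.20 (adjusted permutation p = 0.153 and 0.821).

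Stat5a and Stat5b, the transcription factors downstream of both cytokine receptors, varied little, and neither passed the test between the diets. Stat5a was at 1.5, 1.62 and 1.67 in NP and 1.74, 1.99 and 1.56 in LP rats at day 21, and at 1.74, 1.88 and 1.78 in NP and 1.63, 1.80 and 1.70 in LP rats at day 28. Its diet difference was 0.17 at day 21 and -0.09 at day 28 (SE 0.12 each, adjusted p = 0.862 and 0.776 by limma), with 95% intervals from -0.09 to 0.43 and from -0.35 to 0.18. Stat5b was at -2.48, -2.46 and -2.11 in NP and -2.38, -2.51 and -2.67 in LP rats at day 21, and at -2.70, -2.59 and -2.73 in NP and -2.85, -2.66 and -2.71 in LP rats at day 28. Its diet difference was -0.17 and -0.07 (SE 0.13 each, adjusted p = 0.862 and 0.844 by limma). The groups overlapped in all 4 of these comparisons. Both genes had a low SD over the 12 arrays, 0.13 for Stat5a and 0.20 for Stat5b, and their 4 intervals together ran from -0.45 to 0.43.

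Between day 21 and day 28, none of the 9 member probes differed at an adjusted p under 0.05 by limma, in NP (0.25% of all tested probes), in LP (0%) or over both diets (1.81%). Stat5b was the member with the lowest p. It was lower at day 28 by 0.27 over both diets (log2 difference -0.27, SE 0.09; unadjusted p = 0.0119, adjusted p = 0.143 by limma), and was the only one of the 9 to pass the unadjusted threshold, which 19.2% of all tested probes passed. In NP the difference was -0.32 (SE 0.13, unadjusted p = 0.0269, adjusted p = 0.323 by limma), where 12.8% of all tested probes passed the unadjusted threshold, and all 3 rats of day 28 lay below all 3 of day 21. Without NP day 21 rat 6a it was -0.20 and no longer passed the unadjusted threshold. In LP it was -0.22 (unadjusted p = 0.111) and the days overlapped. Stat5a in NP was higher at day 28 without overlap, by 0.20 (SE 0.12, adjusted p = 0.517 by limma). The day groups did not overlap for 2 of the 9 member probes in NP and for 0 of 9 in LP, against 18.7% of all tested probes in each. For the diets, the groups did not overlap for 0 of 9 at day 21 and 2 of 9 at day 28 (Prlr and Tnfsf11), against 11.5% and 16.8%. For Prlr the differences between the days were -0.04 in NP and -0.03 in LP (95% intervals -0.98 to 0.91 and -0.97 to 0.92), and for Esr1 in LP 0.01 (interval -0.48 to 0.49). Pgr differed by 0.16 in NP and 0.99 in LP, with SE of 1.05. Since the days were on different slides, these differences carry whatever differs between slides.

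**Figure D5:**
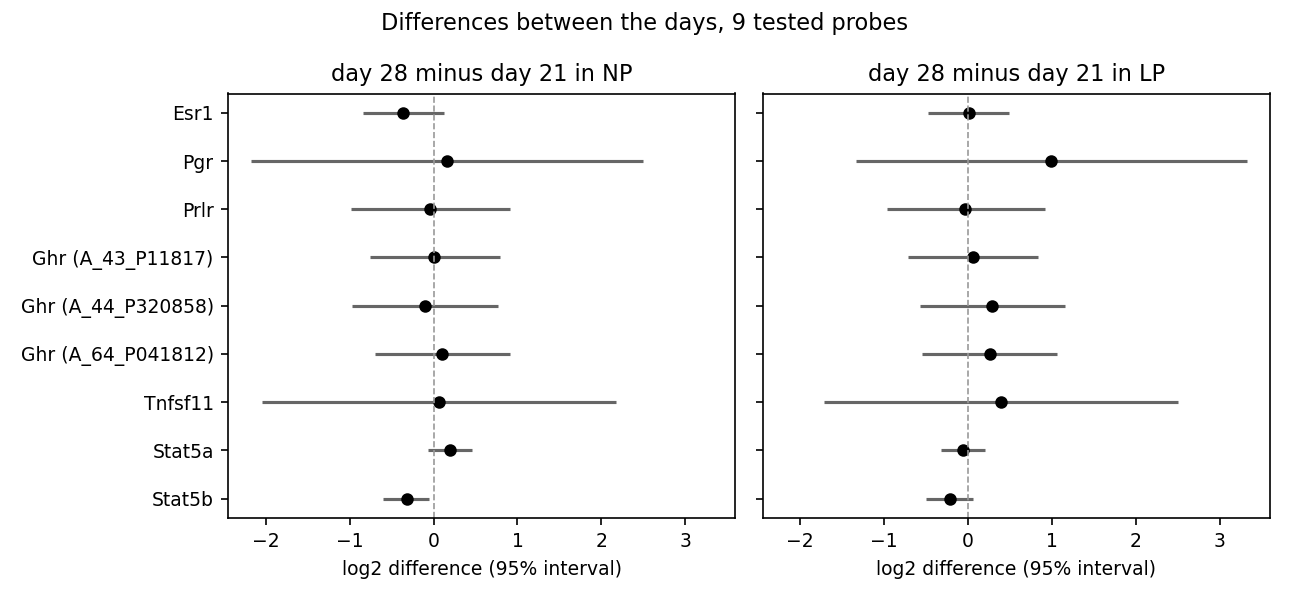
Difference day 28 minus day 21 on the log2 scale for the 9 tested member probes in NP (left) and LP (right); points are limma estimates from 3 rats per group and lines their 95% intervals. Stat5b in NP is the only probe whose interval, from -0.60 to -0.05, leaves out 0.

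The genes around these receptors were read from 5 lists, of which 61 genes were tested, and none differed between the diets or days at an adjusted p under 0.05 by limma. Among oestrogen receptor targets and cofactors, 1 of 16 tested genes passed the unadjusted threshold at day 21 and 2 of 16 at day 28, against 4.36% and 8.07% of all tested probes. Foxa1, the pioneer factor that opens oestrogen receptor binding sites, was higher in LP at day 21 by 0.95 (SE 0.35, unadjusted p = 0.0223, adjusted p = 0.861 by limma), and by 0.61 without LP rat 6a (unadjusted p = 0.0922). Xbp1, a target of the receptor, was higher in LP at day 28 by 0.45 (SE 0.15, unadjusted p = 0.0133, adjusted p = 0.581 by limma), and Nrip1, a corepressor that is itself a target, lower by 0.45 (log2 difference -0.45, SE 0.14, unadjusted p = 0.0087, adjusted p = 0.581 by limma). The median difference of the list was 0.03 at day 21 and -0.02 at day 28, close to that of all tested probes.

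Of the progesterone receptor targets and the RANK ligand pathway, 0 of 12 tested genes passed at day 21 and 1 of 12 at day 28, against the same shares of all probes. Wnt4, which is secreted downstream of the progesterone receptor, was higher in LP at day 28, by 1.28 (SE 0.52, unadjusted p = 0.0322, adjusted p = 0.581 by limma). Without NP rat 4f it was higher by 0.76 (unadjusted p = 0.138). Its log2 level there was -2.01, -1.85 and -1.77 in LP against -4.21, -2.68 and -2.60 in NP rats. Averaged over both days Wnt4 was higher by 1.18 and Cited1, a coactivator of the oestrogen receptor, by 1.07 (unadjusted p = 0.00907 and 0.0435, adjusted p = 0.418 for both by limma). Cited1 was higher by 0.64 without NP day 28 rat 4f and by 0.90 without LP day 21 rat 6a, and it no longer passed the unadjusted threshold without the latter or without any 1 of several other rats. Over the 12 arrays the r of Prlr with Wnt4, Cited1 and Foxa1 was 0.99, 0.96 and 0.90, and Wnt4 was one of the 3 genes most like Prlr among all tested genes. Nfkb2, a subunit of the NF-kB pathway that acts below RANK, was lower in LP by 0.47 over both days (log2 difference -0.47, unadjusted p = 0.0251, adjusted p = 0.418 by limma), and its lowest array, at -0.75, was LP day 21 rat 6a, the array with few lymphocyte transcripts, without which the difference was -0.31.

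In the prolactin and growth hormone signalling list, 1 of 19 tested genes was lower at day 21 and 2 of 19 at day 28 at the unadjusted threshold, where 2.26% and 6.09% of all tested probes were lower, and none was higher, against 2.1% and 1.98%. Socs3, an inhibitor of JAK signalling, was lower in LP at day 28 (log2 difference -0.40, SE 0.17, unadjusted p = 0.0384, adjusted p = 0.581 by limma), as was Igf1r, the receptor of insulin-like growth factor 1 (-0.38, SE 0.17, unadjusted p = 0.0499, and -0.20 without NP rat 4f). The gene of day 21 was Onecut1, a transcription factor induced by growth hormone in liver, which was above background on 2 NP arrays and no LP array of that day. Its log2 difference was -1.03 (SE 0.40, unadjusted p = 0.029, adjusted p = 0.861 by limma). With signals this close to background its size is uncertain, and over the alternative settings it lay between -1.32 and -0.04 (unadjusted p up to 0.833 by limma). Between the days in LP, 4 of 19 genes were higher at the unadjusted threshold and 0 lower, against 4.46% and 5.65% of all tested probes. Over both diets 4 of 19 were higher and 1 lower, against 9.89% and 9.35%. Socs2, a feedback inhibitor of the growth hormone receptor, was higher at day 28 in LP by 0.45 (SE 0.15, unadjusted p = 0.0114, adjusted p = 0.371 by limma), and by 0.30 without LP day 21 rat 6a. Stat3 was higher at day 28 over both diets by 0.32 (unadjusted p = 0.00992, adjusted p = 0.133 by limma). In the oestrogen and progesterone metabolism list, 0 of 9 tested genes passed for the diets at either day.

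Of the milk protein genes under STAT5, 5 of 7 were tested, and 5 of 5 differences LP minus NP were above 0 at each day. Their medians were 1.08 and 1.26, against 0.01 and -0.05 over all tested probes. At the unadjusted threshold 1 of 5 passed at day 21 and 1 of 5 at day 28, against 4.36% and 8.07% of all tested probes. Csn3, kappa casein, was at -3.38, -3.76 and -4.65 in NP and -1.25, 1.82 and -3.93 in LP rats at day 21, higher by 2.81 (SE 1.25, unadjusted p = 0.0479, adjusted p = 0.861 by limma). LP rat 7c lay among the NP rats, as it did for Prlr. Without LP rat 6a the difference was 1.34 (unadjusted p = 0.198 by limma) and without LP rat 7c 4.22. Csn1s2a was above background on 2 LP arrays and no NP array of day 28, with a log2 difference of 2.08 (SE 0.74, unadjusted p = 0.0181, adjusted p = 0.581 by limma). With the NP signals at background, the size of this difference is uncertain, and over the alternative settings it lay between 0.37 and 3.05. Averaged over both days, Csn3 was higher by 2.62 and Csn1s1, alpha S1 casein, by 1.27 (unadjusted p = 0.014 and 0.018, adjusted p = 0.418 for both by limma). The r of Csn1s1 with Prlr was 0.93 and with Stat5a 0.59 over the 12 arrays. The r of the luminal mean with Stat5a was 0.68 (adjusted permutation p = 0.113), and 0.08 within day 28.

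Finally, the 3 non-member genes whose levels ran most like those of each member were taken over the 12 arrays, as a description with no test. For Prlr these were RGD1309903, Wnt4 and Msx2, a homeobox gene of the mammary epithelium, all with r of 0.99. For Ghr they were Ggcx (0.97), P2rx6 and Loxl2 (0.94 each), for Stat5a Plscr2 and RGD1359334 (0.88 each) and Muc15 (0.87), and for Esr1 Ndufs8 (0.90), Pdzrn3 and TC587630 (0.89 each). For Stat5b they were Gtf3c1, Nol9 and ENSRNOT00000058734, all with r of 0.97. Between members, r was 0.88 for Prlr and Pgr, 0.63 for Prlr and Esr1, 0.65 for Prlr and Ghr, -0.63 for Prlr and Tnfsf11 and -0.03 for Stat5a and Stat5b.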

How the data were processed

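Total RNA was labelled with Cy3 and hybridised to 1-colour Agilent whole genome rat arrays. The authors deposited the intensity of each spot from Agilent Feature Extraction 10.7.3.1 (protocol GE1_105_Jan09, annotation on rn4), background-subtracted and not scaled between arrays, and a deposited value table that held the same signals as a constant ratio to them (largest relative deviation 6.56e-05). From the processed signals, control and outlier spots were left out, spots of a probe were averaged, and the 75th percentile of each array was subtracted on the log2 scale. A probe was kept where 3 or more of the 12 arrays gave a signal well above background (23209 of 30367). The 4 groups were fitted together with limma 3.58.1 in R 4.3.3, with Benjamini-Hochberg adjustment over all tested probes, and the script was tested on simulated data. The Rosetta Resolver calls of the study were not repeated. Groups came from the labels. Relations with marker lists used permutation tests written with numpy 2.4.6, with ranks and Spearman's rho from scipy 1.17.1. The permutations over all 12 arrays were not kept within diet or day. One gene of the lymphocyte list is not reported here and was left out of its mean. Members and lists were chosen with earlier results of these data known, and the average over both days and the levels relative to markers were added after the values were seen. Other genes named were, per list and contrast, from the 3 with the lowest unadjusted p where that was under 0.05, and per member above background on all arrays the 3 with the highest correlation. Alternatives covered normalization, background, filters, model, slide row, probe choice and leaving out each rat. The number of arrays limits the precision.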

Additional observations from a re-analysis of the deposited data

How the results depend on the processing

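No member probe passed the adjusted threshold under any alternative run, and counts at an unadjusted p under 0.05 moved as follows, against 0 for the diets at either day and for the change between the days. At day 21 the count was 1 with normexp, 1 with no filter on dim probes and 1 with the replicate block, and 0 to 2 when each rat was left out (2 without LP rat 7c, namely Prlr and Stat5a). At day 28 it was 1 (Tnfsf11) with only the 6 arrays compared, 2 (Prlr and Pgr) with the replicate block, and 0 to 4 when each rat was left out (4 without NP rat 6f of day 28). For the change between the days it was 0 to 1. What the replicate numbers mark is not given in the labels. Each dam had 1 diet, so arrays of unlike diet do not bear on shared dams. After the group means were taken out, same-numbered arrays of the same diet at different days correlated at -0.06 to 0.38, not all above 0.1. With so few arrays this cannot decide whether the numbers mark shared dams, and they were not used to pair the rats in the main fit. Signs turned for small or array-bound differences. With normexp the day difference over both diets was 0.02 for Esr1 and 0.00 for Prlr, and the change between the days for Tnfsf11 was -0.16. With the slide row as a covariate, the Ghr probe A_44_P320858 was at -0.03 at day 21 and Stat5a at -0.01 over both days. Relative to marker means, Pgr at day 21 was -0.09, and Tnfsf11 was 0.84 at day 21 and 0.24 over both days. Leaving out each rat gave ranges of -0.11 to 0.20 for Esr1 at day 21, -2.15 to 0.10 for Tnfsf11 at day 21 and -0.02 to 0.09 for Stat5a over both days. For the day difference over both diets they were -0.09 to 0.21 (Ghr, A_43_P11817), -0.08 to 0.33 (Ghr, A_44_P320858), -0.23 to 0.19 (Prlr) and -0.50 to 0.62 (Tnfsf11), and for the change between the days -1.13 to 1.12 (Tnfsf11). The cause was not tested. Pgr, Tnfsf11 and Esr2 lay near background on some arrays, where small signals have wide log2 errors.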
